A study of Mus musculus with 31 samples.

Results

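The Notch pathway genes of neural progenitors described here number 9. They are the receptors Notch1 and Notch2, the ligands Dll1 and Jag1, the DNA-binding partner Rbpj, and the target transcription factors Hes1, Hes5, Hey1 and Hey2. Every probe set of the array with one of these annotated symbols was taken, which gave 16 of the 45037 mouse probe sets. Of the 16, 14 exceeded the median signal of their array in at least 3 mice and were tested, and each of the 9 genes had at least 1 tested probe set among 12844 genes tested. A gene with several tested probe sets is shown by the one with the highest mean signal, and the others are given beside it.

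Notch signalling passes between touching cells. A ligand of the Delta or Jagged family on one cell binds a Notch receptor on its neighbour, the receptor is cut by proteases, and its intracellular part moves to the nucleus, where it binds Rbpj and switches on repressors of the Hes and Hey families. In the developing hippocampus these repressors hold back the genes that turn a progenitor into a neuron, and in the adult the pathway is known from the stem cells of the dentate gyrus, from astrocytes and from blood vessels.

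Total RNA of the whole hippocampus of 31 male mice on the C57BL/6 background was measured on Affymetrix GeneChip arrays. The Glud1 transgenic (Tg) mice over-expressed glutamate dehydrogenase 1, a mitochondrial enzyme that makes and degrades glutamate, in neurons of the central nervous system, and the wild type (wt) mice carried no transgene. Mice were 10 days, 4.5, 9, 14.5 or 20 months old, with 3 mice in each combination of age and genotype and 4 in wt at 10 days. The comparisons asked how expression changed with age and whether it differed between Tg and wt. The Glud1 probe sets lie in a 3′-UTR that the transgene lacks, so they checked nothing about the genotype labels.

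Signals are given on the linear scale after quantile normalization, and changes as log2 fold changes with their SE. In the bulk tissue, fewer cells of a type and less RNA per cell cannot be told apart. The hippocampal markers Prox1, Wfs1, Zbtb20, Neurod6, Fibcd1 and Dsp were measured at every age, and their summed signal lay between 11461 and 17434 in all 31 mice. The summed signal of 6 choroid plexus markers, among them Ttr, ran from 646 to 46655, and it differed between mice of one group, with 1351, 1907 and 34275 in the 3 Tg mice at 10 days. Array measures also moved with age: the log2 ratio of the 3′ to the 5′ actin control was 0.709 to 0.963 at 9 months and 0.315 to 0.552 at the other ages, and that of Gapdh was −0.0782 to 0.0182 at 4.5 months and −0.463 to −0.14 at the others. No batch is given in the labels, so age and the run of the arrays cannot be told apart.

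The promoters of the target genes are shown because Rbpj binds DNA there. RefSeq windows on GRCm38.p6, each from 250 bases before to 50 bases after a gene start, were found for 7 of the 9 genes, in 9 windows. Hes1 and Hey1 were not matched. The letters GTGGGAA, a form of the Rbpj binding sequence, were searched on both strands, and they stand in capitals below, read as TTCCCAC where they lie on the opposite strand. They were found in 2 of the 9 windows, those of Hes5 and Hey2, and in 6.38% of all 32851 promoter windows. Each of these windows held 2 matches, and 0.256% of all windows held 2 or more.
Hes5, chr4:154960673-154960972, plus strand: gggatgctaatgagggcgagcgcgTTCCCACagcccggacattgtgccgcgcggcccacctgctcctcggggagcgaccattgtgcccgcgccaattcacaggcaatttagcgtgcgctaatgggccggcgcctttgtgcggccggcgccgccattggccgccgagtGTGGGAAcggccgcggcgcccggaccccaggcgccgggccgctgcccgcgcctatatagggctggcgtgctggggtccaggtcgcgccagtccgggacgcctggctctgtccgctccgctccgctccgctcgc
Hey2, chr10:30842734-30843033, minus strand: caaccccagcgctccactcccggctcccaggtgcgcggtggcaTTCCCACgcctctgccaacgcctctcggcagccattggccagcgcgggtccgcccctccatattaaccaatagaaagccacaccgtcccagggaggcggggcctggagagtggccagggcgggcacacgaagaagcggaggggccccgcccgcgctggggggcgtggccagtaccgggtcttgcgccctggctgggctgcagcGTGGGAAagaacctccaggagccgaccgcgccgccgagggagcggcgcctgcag
In Hes5 the matches begin 226 and 83 bases before the gene start, and in Hey2 they begin 207 and 4 bases before it. The shorter core TGGGAA, which lies inside GTGGGAA, was also in both windows of Rbpj and in 25.6% of all windows. The windows of Rbpj overlap, and the match in the later window is also a match of the earlier. The windows of Notch1, Notch2, Dll1 and Jag1 held neither form.

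Notch receptors and ligands differed among themselves between 10 days and 4.5 months. Dll1 was lower and Notch2 higher at 4.5 months, and Notch1 was lower by its shown probe set only. The signal of Dll1, the Delta ligand that a cell becoming a neuron presents to its neighbours, ran from 323 to 491 in the 7 mice at 10 days, with a median of 351. At 4.5 months it ran from 181 to 261, with a median of 227, so that the highest adult mouse lay under the lowest young mouse. Dll1 fell 1.64-fold (log2 −0.72 ± 0.12, adjusted p = 8.12e-06). Its later levels lay between 184 and 361, and 20 months differed from 4.5 months by −0.01 ± 0.13 (adjusted p = 0.957).

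Notch1, the receptor known for keeping neural stem cells undifferentiated, had a signal of 556 to 708 at 10 days (median 642) by probe set 1418634_at. At 4.5 months the signal was 319 to 563 (median 410), and only the highest of these 6 mice reached the range of the young. Notch1 fell 1.51-fold by this probe set (log2 −0.60 ± 0.12, adjusted p = 4.71e-05). The second probe set, 1418633_at, did not show the fall: its signal was 196 to 437 (median 355) at 10 days and 361 to 478 (median 428) at 4.5 months, with a log2 difference of 0.30 ± 0.16 (adjusted p = 0.114). From 4.5 to 20 months the first probe set differed by 0.06 ± 0.12 (adjusted p = 0.751), while the second fell by 0.53 on the log2 scale (SE 0.17, adjusted p = 0.0123), to 257 to 314 at 20 months. The probe sets correlated with r = 0.37 over the 31 mice, which share the array and its normalization. With the median of both as the value of the gene, the difference between 4.5 months and 10 days was −0.15 (adjusted p = 0.287), so the fall of Notch1 rests on 1 of its 2 probe sets.

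Notch2, the receptor of the same family that is also found in glia and vessel walls, went the other way by probe set 1455556_at. Its signal was 357 to 772 (median 468) at 10 days and 639 to 910 (median 758) at 4.5 months, and a single Tg mouse of 10 days, at 772, lay within the adult range. The rise was 1.58-fold (log2 0.66 ± 0.13, adjusted p = 5.81e-05). It was lost again with age: the signal was 474 to 740 at 9 months, 436 to 516 at 14.5 months and 394 to 572 (median 514) at 20 months. No mouse of 20 months reached the lowest mouse of 4.5 months, and Notch2 fell 1.54-fold between these ages (log2 −0.62 ± 0.13, adjusted p = 0.000405). A second probe set for Notch2 had a signal of 16.7 to 109 and was not tested.

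Jag1, a Jagged ligand made by progenitors, glia and endothelium, had a signal of 226 to 366 (median 270) at 10 days and 251 to 439 (median 348) at 4.5 months by probe set 1434070_at, a difference that did not pass (log2 0.27 ± 0.13, adjusted p = 0.0789). It passed without quantile normalization (0.44, adjusted p = 0.00436) and without Tg mouse 3 or wt mouse 3 of 10 days or Tg mouse 2 of 4.5 months (0.32 to 0.40, adjusted p up to 0.0416). Its lowest age was 9 months, at 209 to 332 (median 235), where it had fallen 1.39-fold from 4.5 months (log2 −0.47 ± 0.14, adjusted p = 0.00603). From 9 to 14.5 months it rose by 0.35 ± 0.14 (adjusted p = 0.0378). That rise did not pass without filtering (adjusted p = 0.0545) or when any one was left out of Tg mice 1 and 3 or wt mice 2 and 3 of 9 months, or Tg mice 1 and 2 or wt mice 1 and 2 of 14.5 months (adjusted p up to 0.0881). The fall to 9 months did not pass with the median of the probe sets (−0.59, adjusted p = 0.111). The level at 20 months did not differ from 4.5 months beyond the spread of the mice (−0.15 ± 0.14, adjusted p = 0.414). The dimmer probe set 1421106_at ran from 66.1 to 117 at 10 days and from 19.5 to 56.3 at 4.5 months. It fell by 1.53 on the log2 scale (SE 0.54, adjusted p = 0.0154), in the opposite direction to the difference of the first, but it was above the median of its array in 1 of 7 mice at 10 days and in 0 of 6 at 4.5 months. Another probe set, with a signal of 3.33 to 125, was not tested. No single direction can be given for Jag1 in development.

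Rbpj, the protein that carries the cut receptor to DNA and represses the same genes without it, had a signal of 637 to 905 (median 778) at 10 days by probe set 1454896_at. At 4.5 months it was 689 to 783 (median 719) at 4.5 months (log2 −0.07 ± 0.07, adjusted p = 0.4). At 20 months it was 843 to 991 (median 921), above every mouse of 4.5 months, a 1.26-fold rise (log2 0.34 ± 0.07, adjusted p = 0.000444). The other probe sets did not share this rise. With 1448957_at the signal was 363 to 488 at 4.5 months and 308 to 414 at 20 months, a fall of 0.24 on the log2 scale (SE 0.09, adjusted p = 0.0288) after a rise of 0.26 ± 0.08 from 10 days to 4.5 months (adjusted p = 0.00759). With 1418114_at the difference between 20 and 4.5 months was 0.09 ± 0.11 (adjusted p = 0.599). The first probe set correlated with these at r = −0.144 and 0.336 over the 31 mice, so the change of Rbpj with age has no direction that its 3 probe sets share.

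**Figure D1:**
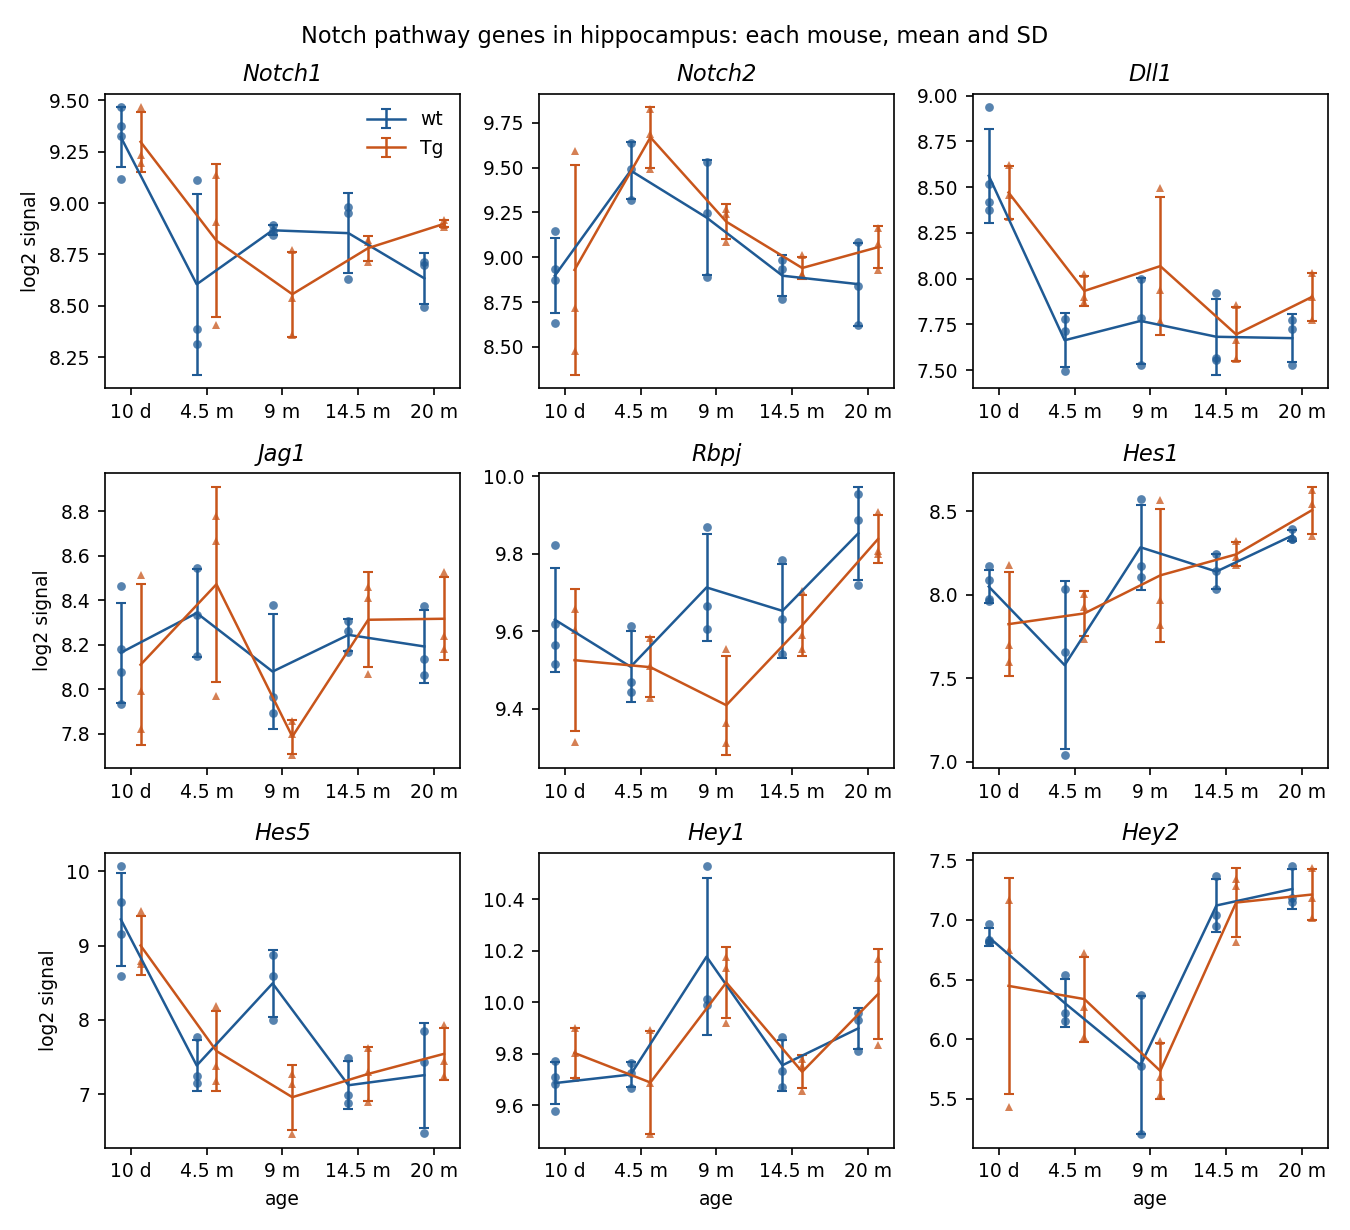
The log2 signal of the probe set shown for each of the 9 genes (y axis) is plotted by age (x axis, d for days and m for months), with a point for each mouse and lines through the mean ± SD of wt (circles, n = 3, and 4 at 10 days) and Tg (triangles, n = 3). Hes5 and Dll1 are highest at 10 days, Notch2 at 4.5 months and Hey1 at 9 months, while Hes1 and Hey2 reach their highest means at 20 months.

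Of the target genes, Hes5 changed most between 10 days and 4.5 months, and Hes1, Hey1 and Hey2 did not pass in that comparison with all mice. Hey2 passed without Tg mouse 1 of 10 days (from −0.33 to −0.59, adjusted p = 0.0127), and Hes1 without wt mouse 1 of 4.5 months (from −0.20 to −0.32, adjusted p = 0.0403). Hes5 is the repressor that marks progenitors with active Notch signalling. By probe set 1456010_x_at its signal was 385 to 1074 (median 573) at 10 days and 142 to 291 (median 159) at 4.5 months. The ranges did not overlap, and Hes5 fell 3.24-fold (log2 −1.69 ± 0.24, adjusted p = 7.61e-07). The suffix of this probe set marks probes that may also match other transcripts, so the second probe set, 1423146_at, is given too. It ran from 248 to 522 (median 357) at 10 days and from 218 to 326 (median 237) at 4.5 months. These ranges overlapped, and the fall was smaller but in the same direction, 1.47-fold (log2 −0.56 ± 0.16, adjusted p = 0.00325).

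Between 4.5 and 20 months the Hes5 probe sets parted. The first had a signal of 89 to 244 (median 174) at 20 months, which did not differ from 4.5 months beyond the spread (log2 −0.08 ± 0.25, adjusted p = 0.825). The second was 94.4 to 161 (median 106) at 20 months, under every mouse of 4.5 months, and fell 2.17-fold (log2 −1.12 ± 0.17, adjusted p = 2.71e-06). At 20 months the first was above the median of its array in 5 of 6 mice and the second in 2 of 6.

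Hes1, the repressor whose level oscillates in dividing progenitors and which is also made in astrocytes and endothelium, moved later. Its signal was 193 to 290 (median 252) at 10 days and 132 to 262 (median 228) at 4.5 months (log2 −0.20 ± 0.14, adjusted p = 0.196). At 9 months it was 225 to 382, a rise of 0.47 ± 0.14 over 4.5 months (adjusted p = 0.0078), and at 20 months it was 323 to 396 (median 332). Every mouse of 20 months lay above every mouse of 4.5 months. Hes1 rose 1.62-fold between these ages (log2 0.70 ± 0.14, adjusted p = 0.000199). The lowest value at 4.5 months, 132, belonged to 1 wt mouse, and the rise passed under all 41 alternatives, at 0.57 to 0.81. The rise to 9 months did not pass with only the arrays of those ages in the fit (adjusted p = 0.0593).

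Hey1 and Hey2 encode related repressors that are best known from blood vessels and the heart and that also act in neural precursors. The signal of Hey1 was 765 to 957 (median 839) at 10 days and 718 to 950 (median 836) at 4.5 months. It was higher at 9 months, at 969 to 1477 (median 1080), with no overlap with the ages on either side, since the range at 14.5 months was 808 to 932. Hey1 thus rose by 0.42 ± 0.08 (adjusted p = 0.000125) and then fell by 0.38 on the log2 scale (SE 0.08, adjusted p = 0.000329). At 20 months its signal was 898 to 1150 (median 985), and 20 months exceeded 4.5 months by 1.2-fold (log2 0.26 ± 0.08, adjusted p = 0.0129). Without Tg mouse 2 of 4.5 months the adjusted p of that rise was 0.0515, and with the choroid plexus marker sum as a covariate it was 0.0549.

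Hey2 had a low signal. It was 43.1 to 144 (median 113) at 10 days, 64.8 to 105 (median 75.9) at 4.5 months and 36.9 to 82.5 (median 53.0) at 9 months. At 14.5 months it was 112 to 166 (median 144) and at 20 months 130 to 175 (median 145), so that all 12 mice of the last ages lay above all 12 of 4.5 and 9 months. Hey2 rose 2.60-fold from 9 to 14.5 months (log2 1.38 ± 0.24, adjusted p = 1.92e-05) and 1.89-fold from 4.5 to 20 months (log2 0.92 ± 0.24, adjusted p = 0.00252). It was above the median of its array in 0 of 6 mice at 4.5 and at 9 months, in 5 of 6 at 14.5 months and in 6 of 6 at 20 months. The lower levels thus lie in the dim part of the arrays, and with an offset or another setting the rise from 4.5 to 20 months ranged from 0.62 to 1.02 on the log2 scale.

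**Figure D2:**
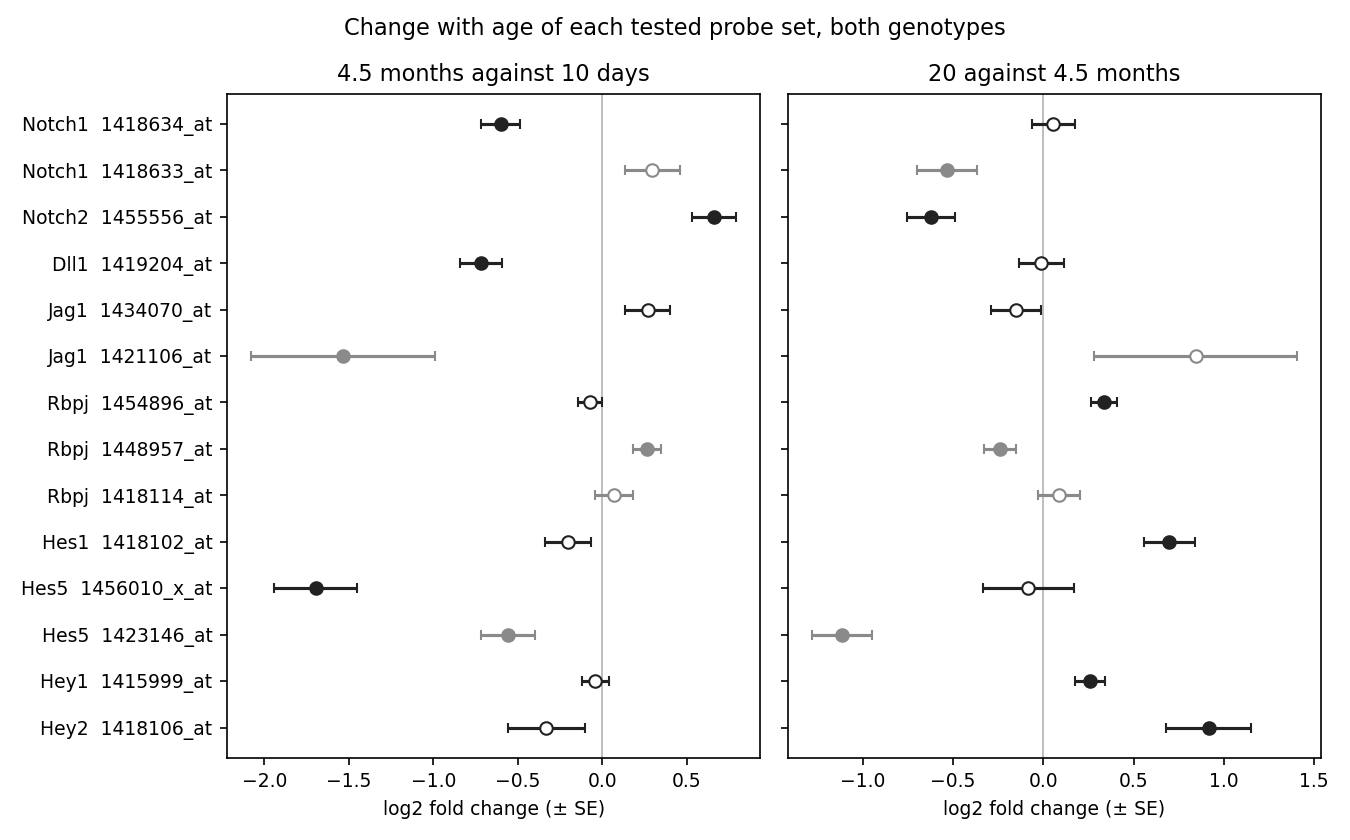
The log2 fold change ± SE (x axes) is plotted for each of the 14 tested probe sets, 4.5 months against 10 days on the left and 20 against 4.5 months on the right, with both genotypes averaged. Black marks the probe set shown for a gene and grey the others, and filled circles passed at an adjusted p under 0.05. The probe sets of Notch1, Jag1 and Rbpj lie on opposite sides of 0 in development, while both of Hes5 lie below it.

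Counted over the 9 genes, 1 rose and 3 fell between 10 days and 4.5 months at an adjusted p under 0.05. Over all 12844 genes 31.2% rose and 35.5% fell in this comparison, so a change was common among all genes. The median change of the 9 was −0.20 and that of all genes −0.04. Between 4.5 and 20 months 4 of the 9 rose and 1 fell, where 22.4% of all genes rose and 19.9% fell, and the medians were 0.06 and 0.03. These counts rest on the shown probe sets. With the median of a gene's probe sets Rbpj rose in development (0.26, adjusted p = 0.00499) and Notch1 did not pass. From 4.5 to 20 months Rbpj (−0.24, adjusted p = 0.02) and Hes5 (−0.60, adjusted p = 0.00246) then fell. With 9 genes, the counts say nothing particular about the pathway. The steps between adult ages gave 4 of 9 members from 4.5 to 9 months against 44.9% of all genes, 3 of 9 from 9 to 14.5 months against 48.2%, and 2 of 9 from 14.5 to 20 months against 33.6%. Those of the last step were Rbpj (0.21 ± 0.07, adjusted p = 0.0259) and Hey1 (0.22 ± 0.08, adjusted p = 0.0387), and neither call was stable. Rbpj did not pass when any one was left out of Tg mice 1 and 2 or wt mouse 3 of 14.5 months, or Tg mouse 2 or wt mice 1 and 3 of 20 months (adjusted p up to 0.0742). Hey1 did not pass when any one was left out of Tg mice 2 and 3 or wt mice 1 and 2 of 14.5 months, or Tg mice 1 and 3 or wt mice 2 and 3 of 20 months (adjusted p up to 0.105). Across all ages at once, 8 of 9 changed in wt, Jag1 excepted (adjusted p = 0.748), and 9 of 9 in Tg, against 75.6% and 74% of all genes.

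The age changes that passed with both genotypes averaged had the same sign in wt and in Tg. Hes5 changed by −1.97 ± 0.33 in wt and by −1.42 ± 0.36 in Tg between 10 days and 4.5 months, Dll1 by −0.90 ± 0.17 and −0.54 ± 0.18, and Notch2 by 0.59 ± 0.18 and 0.74 ± 0.19. The differences between the genotypes in these changes had adjusted p values of 0.879, 0.803 and 0.949. Between 4.5 and 20 months Hes1 changed by 0.78 ± 0.20 in wt and 0.62 ± 0.20 in Tg, and Hey2 by 0.96 ± 0.33 and 0.88 ± 0.33, with adjusted p values of 0.984 and 0.995 for the difference. Between 10 days and 4.5 months Hes1 changed by −0.47 ± 0.19 in wt (adjusted p = 0.0344) and by 0.06 ± 0.20 in Tg (adjusted p = 0.816), and the difference of 0.54 ± 0.27 did not pass (adjusted p = 0.718).

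For Tg against wt within an age, a gene counted when its adjusted p was 0.01 or less and its fold change 1.3 or more, and 0 of the 9 genes did so at any age. Over all genes 0%, 0%, 0.693%, 0% and 0.0311% passed at 10 days, 4.5, 9, 14.5 and 20 months. At an unadjusted p under 0.05, limma gave 2 of the 9 by their shown probe sets at 9 months, Hes5 and Rbpj, where 18.1% of all genes were under it, and 0 at each other age, where 0.942% to 6.73% of all genes were. Among the other probe sets, 1418633_at of Notch1 at 9 months (log2 −0.65 ± 0.24, adjusted p = 0.123), 1418114_at of Rbpj at 10 days (−0.43 ± 0.15, adjusted p = 0.488) and the second of Hes5 at 9 months were also under it. For the mean over ages 0 of 9 passed against 0.0156% of all genes, and for the 5 ages together 0 of 9 against 0.195%, with 0 and 1 of the 9 at an unadjusted p under 0.05 in limma, where 8.5% and 9.28% of all genes were. The mean differences of the shown probe sets ran from −0.25 for Hes5 (95% interval −0.57 to 0.07) to 0.14 for Dll1 (−0.02 to 0.30). The 95% intervals of single ages were wider, for example −0.35 to 0.30 for Notch1 at 10 days, so a difference of that size was not detectable.

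Hes5 at 9 months was the member nearest to a difference between the genotypes. By probe set 1456010_x_at the wt mice had signals of 257, 386 and 471 and the Tg mice 87.9, 141 and 155. By probe set 1423146_at the wt mice had 187, 192 and 215 and the Tg mice 95, 102 and 137. The groups did not overlap in either. Tg lay below wt by 2.89-fold with the first (log2 −1.53 ± 0.36, adjusted p = 0.0168) and by 1.80-fold with the second (log2 −0.85 ± 0.23, adjusted p = 0.0416). Both pass an adjusted p under 0.05, as did 2.99% of all genes at this age, and neither passes 0.01. The Tg signals were dim: 1 of the 3 Tg mice by the first probe set and 2 of the 3 by the second lay below the median of their array, and 0 of the 3 wt mice did by either.

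At the other ages the Hes5 genotypes overlapped by both probe sets. At 4.5 months the first probe set gave 142, 151 and 219 in wt and 144, 167 and 291 in Tg. At 14.5 months it gave 118, 128 and 180 in wt and 119, 157 and 197 in Tg. The test of whether the genotype difference varied with age did not pass for Hes5 (adjusted p = 0.299 and 0.444 by the probe sets), and it passed for 0 of the 9 genes and for 0.0623% of all genes, with 1 of the 9, Hes5, and 8.38% of all genes at an unadjusted p under 0.05. Without Tg mouse 3 of 9 months the Hes5 difference was −1.29 (adjusted p = 0.0947), without wt mouse 3 of that age −1.34 (adjusted p = 0.0516), without quantile normalization −1.28 (adjusted p = 0.0516), and with only the 6 arrays of 9 months in the fit the adjusted p was 0.187.

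The sums of progenitor and of hippocampal markers and a sign of RNA quality differed between the same mice of 9 months. The other marker sums given here overlapped between the genotypes. With the choroid plexus sum as a covariate in limma, Hes5 by its shown probe set kept an adjusted p under 0.05. The part of the other measures in the Hes5 difference was not tested. The log2 ratio of the 3′ to the 5′ actin control was 0.768, 0.897 and 0.963 in wt and 0.709, 0.739 and 0.756 in Tg, with no overlap. That of Gapdh overlapped, at −0.14, −0.303 and −0.411 in wt and −0.357, −0.355 and −0.323 in Tg. The summed signal of 12 progenitor markers was 17471 to 18523 in wt and 14951 to 16414 in Tg, and 0 of the 12 passed. The 6 hippocampal markers summed to 11461 to 12953 in wt and 13008 to 16697 in Tg, and Dsp (log2 1.11 ± 0.30, adjusted p = 0.0436) and Prox1 (0.77 ± 0.22, adjusted p = 0.0492), both of the dentate gyrus, were higher in Tg. The 6 choroid plexus markers summed to 38233 to 41618 in wt and 4519 to 46655 in Tg. The 8 astrocyte markers summed to 69009 to 72487 in wt and 66607 to 70241 in Tg, and the 8 endothelial markers to 2268 to 2387 and 1785 to 2397. The 6 mural cell markers summed to 4602 to 7639 in wt and 4276 to 5980 in Tg, with a median log2 difference of −0.59, and 0 of the 6 passed. Rbpj at 9 months, with 779, 813 and 934 in wt and 636, 659 and 752 in Tg by probe set 1454896_at, did not pass (log2 −0.30 ± 0.10, adjusted p = 0.0965). Its other probe sets gave 0.02 ± 0.12 with 1448957_at and −0.12 ± 0.16 with 1418114_at.

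**Figure D3:**
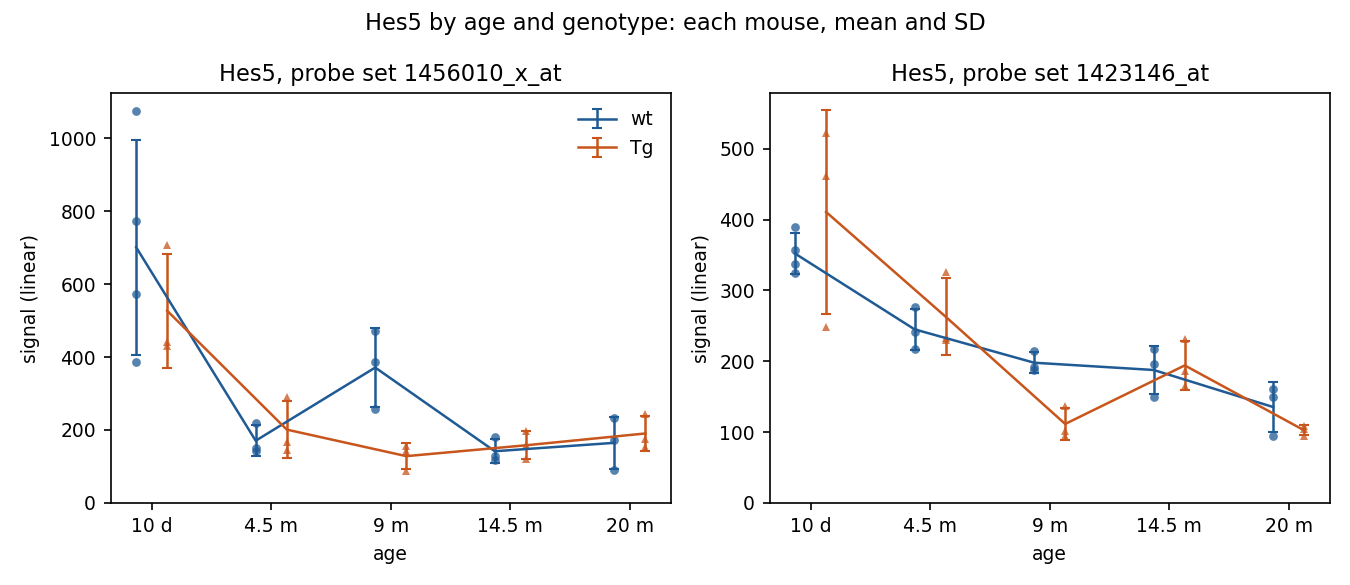
The linear signal of Hes5 (y axes, from 0) is plotted by age (x axes) for its 2 probe sets, with a point for each mouse and lines through the mean ± SD of wt (circles) and Tg (triangles). At 9 months the 3 Tg mice lie below the 3 wt mice in both panels, and at 4.5 and 14.5 months the genotypes overlap.

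Of 61 other genes of the pathway, listed by role, 53 were tested. Between 10 days and 4.5 months 21 rose and 18 fell, with a median change of 0.09 against −0.04 for all genes, of which 31.2% rose and 35.5% fell. In ageing, from 4.5 to 20 months, there were 6 that rose and 21 that fell, with a median of −0.17 against 0.03 for all genes, of which 22.4% rose and 19.9% fell. The counts by role that follow stand against the same shares of all genes. Of the 5 other targets tested, 4 fell in development, namely Id3 (−0.996 ± 0.086, adjusted p = 2.63e-11), Id1 (−0.81 ± 0.09), Hes6 (−0.96 ± 0.12) and Heyl (−0.42 ± 0.16, adjusted p = 0.0196). Id4, an inhibitor of basic helix-loop-helix factors like Id1 and Id3, rose by 1.19 ± 0.07. Nrarp, a feedback inhibitor that Notch itself induces, fell by 0.64 on the log2 scale (SE 0.06, adjusted p = 2.94e-10) and fell further by 0.28 between 4.5 and 20 months (SE 0.06, adjusted p = 0.000869).

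Genes that damp or shape the signal moved in both directions. Of 9 genes for receptor turnover and inhibition 4 rose and 3 fell in development, led by Dtx3, a Deltex ubiquitin ligase (1.93 ± 0.08), and Numb, an inhibitor of the receptor (0.84 ± 0.07). In ageing 3 of the 9 rose and 5 fell, with Dtx3 at −1.86 ± 0.08, Dtx1 at −0.79 ± 0.06 and Numbl at −1.25 ± 0.10. Of the 8 tested genes for receptor cleavage 2 rose and 4 fell in development, and 1 rose and 3 fell in ageing. Ncstn of the γ-secretase complex rose by 0.64 ± 0.08 in development and fell by 1.17 on the log2 scale in ageing (SE 0.09). Furin, which cuts the receptor on its way to the surface, rose by 0.41 ± 0.13 and then fell by 1.12 (SE 0.14). Lfng, the Fringe enzyme whose sugars set which ligand a receptor answers to, rose by 0.99 ± 0.12 and then fell by 1.06 (SE 0.12). Of the 5 genes for receptor glycosylation, Lfng among them, 2 rose and 2 fell in development, and 0 rose and 2 fell in ageing.

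Of the 6 other ligands 2 rose and 2 fell in development. Dll3, which inhibits Notch in the cell that makes it, fell by 0.85 on the log2 scale (SE 0.19, adjusted p = 0.000249). Dner, a Notch ligand of neurons, fell by 0.78 (SE 0.06). Notch3 and Notch4, receptors of vessel wall and endothelium, did not pass in development and fell in ageing (−0.57 ± 0.11, adjusted p = 0.000176, and −0.50 ± 0.18, adjusted p = 0.0241). Notch4 was lowest at 9 months, where it had fallen by 1.68 on the log2 scale from 4.5 months (SE 0.18, adjusted p = 6.55e-09), and it rose by 1.88 ± 0.18 to 14.5 months. Of the 8 corepressors tested, 5 rose and 1 fell in development, Tle1 rising by 0.58 ± 0.05, and 0 rose and 4 fell in ageing, with Tle2 at −1.04 ± 0.15. Of the 6 coactivators 3 rose and 1 fell in development, Ep300 rising by 0.89 ± 0.07, and 1 rose and 1 fell in ageing, Kat2b at 0.60 ± 0.08 and Ep300 at −0.44 ± 0.07. Between Tg and wt 0 of the 53 passed for the mean of ages. At 9 months 4 of the 53 passed at an adjusted p under 0.05, against 2.99% of all genes. Of these 3 were lower in Tg, Furin (−0.89 ± 0.19, adjusted p = 0.0101), Psen2 (−0.43 ± 0.11, adjusted p = 0.0241) and Dtx1 (−0.32 ± 0.09, adjusted p = 0.0436), and Tle1 was higher (0.26 ± 0.07, adjusted p = 0.0484).

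**Figure D4:**
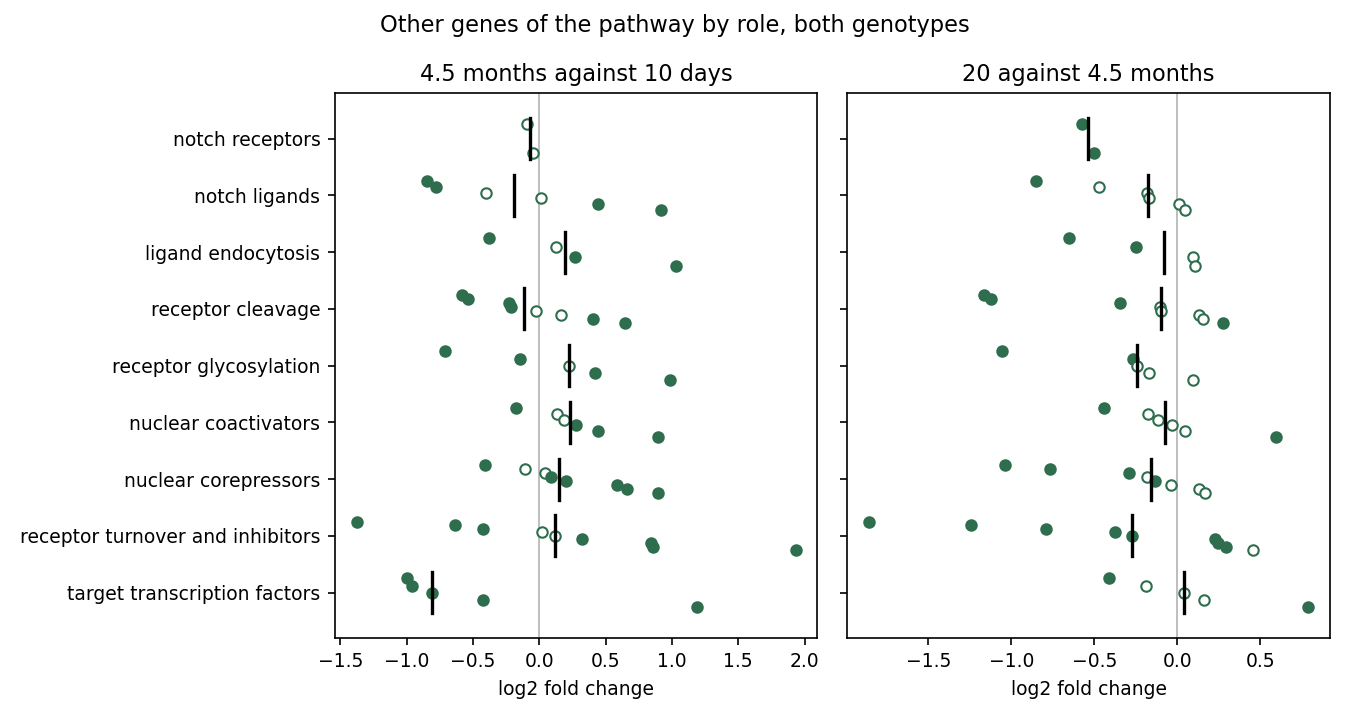
The log2 fold change (x axes) of each of the 53 other tested genes of the pathway is plotted by role (y axis), 4.5 months against 10 days on the left and 20 against 4.5 months on the right, with both genotypes averaged. Filled points passed at an adjusted p under 0.05 and the vertical bars are medians of a role. Of the 5 other targets 4 lie below 0 on the left, and of the 8 corepressors none rose on the right.

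Markers of progenitors and young cells fell with Hes5 and Dll1 between 10 days and 4.5 months, and their part in the changes of the Notch genes was not tested. The summed signal of the 12 progenitor markers was 29181 to 34197 at 10 days and 13208 to 17079 at 4.5 months, and 6 of the 12 fell, among them Fabp7 (−3.00 ± 0.09) and Tnc (−2.97 ± 0.14), while Hopx and Lpar1 rose and Nes, Prom1, Sox1 and Sox9 did not pass. Of 5 proliferation markers 5 fell, with sums of 4704 to 5406 and 2352 to 2777, and at 4.5 months Mki67, Top2a and Cdk1 were under the median of the array in every mouse. Of 6 markers of immature neurons 6 fell, from sums of 30693 to 33201 to sums of 6942 to 7510. The endothelial sums did not overlap either, at 4308 to 4780 and 2674 to 3225, with 3 of 8 lower and 1 higher. The mural sums were 8334 to 11159 and 6233 to 7495. Markers of other cell types mostly rose. Of 5 oligodendrocyte markers 5 rose, with sums of 3476 to 8026 and 40254 to 49970, and Mog was under the array median in every mouse of 10 days. Of 6 neuron markers 5 rose and 1 fell, with sums of 41662 to 50305 and 79421 to 88572. Of 8 astrocyte markers 5 rose and 3 fell, and of 6 microglial markers 4 rose and 2 fell. The part of these markers was not tested either. Over all genes 35.5% fell and 31.2% rose between these ages, so the endothelial count lies near the share of all genes.

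In ageing, where Hes1 and Hey2 rose, the progenitor sums of 4.5 and 20 months overlapped, at 13208 to 17079 and 15099 to 16913, with 3 of 12 up and 3 down. Over all genes 22.4% rose and 19.9% fell between these ages. The endothelial sums were 2674 to 3225 and 2316 to 2625, with 0 of 8 up and 3 down. From 9 to 14.5 months, where Hey2 rose most, they went from 1785 to 2397 to 2309 to 3017, and 6 of 8 markers were up and 0 down, with a median log2 change of 0.55. In that step 4 of 6 neuron markers were up and 2 down, and 3 of 6 hippocampal markers were up and 0 down. Of all genes 48.2% passed there, up or down. The part of the endothelial markers in the rise of Hey2 was not tested. At 9 months, where Hey1 was highest and Jag1 lowest, the endothelial sum was 1785 to 2397, and 5 of the 8 markers were lower than at 4.5 months. Other lists were also lower then, with 5 of 6 neuron, 3 of 6 mural and 3 of 6 hippocampal markers down and 0 up in each. Of the 12 progenitor markers 3 were up and 1 down, and of the 6 microglial markers 3 were up and 1 down. Of all genes 44.9% passed between 4.5 and 9 months, up or down. The 3′ to 5′ actin ratio was also highest at 9 months, and its part was not tested. The mural sums at 20 months were 6655 to 9726, and the astrocyte sums were 73387 to 82737 at 4.5 months and 68627 to 74701 at 20 months. The microglial sums overlapped, at 9427 to 10979 and 10269 to 11094, with 4 of 6 markers up, led by Trem2 (2.29 ± 0.39) and Aif1 (1.09 ± 0.18). Trem2 was dim, under the median of the array in every Tg mouse of 4.5 months.

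The genes whose log2 signal followed a member most closely over the 31 mice were B3galnt1, Cfl2 and Tbcb for Hes5 (Pearson r = 0.876, 0.875 and 0.866) and Msra, Lpl and Bcl11a for Dll1 (0.897, 0.877 and 0.864). For Notch1 they were Armcx6, Idh1 and Igfbpl1 (0.81, 0.808 and 0.806), for Notch2 Pdcd4, Spry2 and Map2k6 (0.774, 0.77 and 0.761), and for Hes1 Sgce, Pcdhb3 and Mrps14 (0.842, 0.797 and 0.787). For Hey1 they were Ncoa1, Limch1 and Ppp1r7 (0.802, 0.801 and 0.791), for Hey2 Tnpo1, Grsf1 and Sf3b2 (0.872, 0.863 and 0.854), for Rbpj Eya4, Pld4 and Tent2 (0.754, 0.742 and 0.739), and for Jag1 Carnmt1, Leng9 and Dbt (0.747, 0.712 and 0.665). Among the members the closest were Notch1 and Hes5 (0.746), Dll1 and Hes5 (0.655) and Notch1 and Dll1 (0.584), all 3 high at 10 days by their shown probe sets. The most opposed were Notch2 and Hes1 (−0.494). All these correlations use the shown probe set of each gene, and probe set 1418633_at of Notch1 was not highest at 10 days. These mice share their ages and arrays, so the values describe this set of mice.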

How the data were processed

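Hippocampal total RNA of 31 male mice, 1 mouse to an array, was grouped by genotype and age from the labels. The authors deposited linear signal intensities made with MAS5, per the labels, with no detection calls. Its version and settings are not given in the sources used here. The RMA values, SAM, EDGE and Cyber-T named in the methods were not run or used here. Intensities of 45037 mouse probe sets were turned to log2 and quantile normalized, and 64 control probe sets were left out. Probe sets above the median of their array in at least 3 mice were tested (26877). Limma 3.58.1 in R 4.3.3 fitted 10 group means with a trended, robust moderated spread. P values were adjusted over all tested probe sets by Benjamini and Hochberg. A gene passed at an adjusted p under 0.05, except that Tg against wt within an age needed an adjusted p of 0.01 or less together with a difference of 1.3-fold or more. On simulated data for 4.5 months against 10 days, 200 of 26877 probe sets were given a change. There 50% of changes of 0.5 and 83% of changes of 1 on the log2 scale were recovered. The adjusted p depends on the share of changed genes, which is far larger in the data. These figures therefore do not measure the recovery of the reported test. The p-values measure the spread between mice, and the number of arrays limits their precision. No 2 arrays were alike beyond a correlation of 0.998, and the lowest within a group was 0.891 on the log2 scale.

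Gene symbols came from the platform annotation, updated by gene identifier for 34741 of 34945 probe sets with a single gene. All 9 members are named and every probe set of theirs is described, though not each by its identifier. Of the other pathway lists genes with the smallest p were named, at most 4 in each direction, though not every list has genes named in both directions. For each member the 3 genes of highest correlation were named. The members, lists and tests were chosen with earlier results of these data known. Markers named beside a result were picked after their values were seen. The paper's methods give 3 mice in every group, while the deposit holds 4 in wt at 10 days, and all were used. Alternatives were the deposited scaling, an offset of 50, other filters, moderation without trend and robustness, the replicate number as a block, the median of the probe sets of a gene, the arrays compared alone, another threshold and each mouse left out. Omission of the x probe sets and the choroid plexus covariate were added after seeing the data.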

Additional observations from a re-analysis of the deposited data

Results flagged for a closer look

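Only the group of 4 wt mice at 10 days was large enough for a search for a mouse apart from the rest of its group, and 16 probe sets were searched. Hey2 stood out there: wt mouse 3 had a signal of 125, and the others had 112, 113 and 114. The gap was 0.883 of the range of the group, above the critical value of Dixon's test. About 1 such group in 20 is expected by chance. For 0 of the 9 genes did the test of a genotype difference in the change with age pass.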

How the results depend on the processing

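Counts of members that passed were within 1.5 times of those reported in 606 recomputations, lower in 17 and higher in 4. The 606 include comparisons in which 0 members passed both times, where no lower count was possible. Of the 606, 453 came from leaving out a single mouse. These counts take no account of the direction of a change. From 14.5 to 20 months 2 members passed, against 0 without quantile normalization, 1 with no filter, 1 with the median of the probe sets, 0 at the stricter threshold, and 0 to 2 with a mouse left out. From 9 to 14.5 months 5 passed with the arrays compared alone, and from 4.5 to 20 months 3 passed at the stricter threshold. For Tg against wt at 9 months 1 passed with the median of the probe sets, 1 at an adjusted p under 0.05, and 1 with the replicate number as a block, each Hes5. The block changed no other count by over 1.5 times. The numbers do not pair the mice: over 15 pairs the correlation of deviations was −0.112 to 0.0549, and 0 exceeded 0.1.

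Single genes changed sign in 20 recomputations. Without quantile normalization, where the median of all genes in development moves from −0.0417 to 0.0511, Hes1 was 0.022 and Hey1 0.016 in development. With the median of the probe sets, Jag1 was −0.63 and Rbpj 0.26 (adjusted p = 0.00499) in development. From 4.5 to 20 months Notch1 was −0.24, Jag1 0.35 and Rbpj −0.24 (adjusted p = 0.02), and from 14.5 to 20 months Rbpj was −0.012. Hes5 kept its sign with that median and passed from 4.5 to 20 months (−0.60, adjusted p = 0.00246). With the choroid plexus sum as a covariate Dll1 was 0.095 from 4.5 to 20 months. With a mouse left out Hey1 ranged from −0.091 to 0.0094 in development, and from 4.5 to 20 months Notch1 ranged from −0.047 to 0.18, Dll1 from −0.053 to 0.026 and Hes5 from −0.23 to 0.11. Without the x probe sets Hes5 was −1.12 in that comparison. The falls of Dll1 and Hes5 and the rise of Notch2 in development, and the changes of Notch2, Hes1 and Hey2 from 4.5 to 20 months, passed in every recomputation that tested them. The cause of the other moves was not tested. No fit of the compared arrays alone exists for comparisons that use all arrays.

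Dim signals limit Hey2, the second Jag1 probe set and Hes5 in mice of 9 and 20 months.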
